A study of Homo sapiens with 15 samples.

Results

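Expression of 10 genes was followed across HT115, an established cell line of human colorectal cancer, in which doxycycline induced GFP, SOX9 or a SOX9 mutant. The genes are LAMA4, VCAN, NTN4, TNFRSF11B, HS3ST3A1, EHD2, PRSS23, PKIB, MAOB and ARSJ. They were chosen by name because their reads were higher in the M228 libraries than in the GFP libraries, and they are 10 of the 60671 genes in the count table. All 10 were among the 16160 genes with enough reads to be tested and among the 33 genes (0.204% of those tested) called higher in M228 than in GFP. The M228 and GFP values therefore chose the genes, and what they show of that difference is description.

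Poly(A)-selected RNA was sequenced from 5 groups of 3 libraries, each given 0.5 µg/ml doxycycline for 24 h. The groups express GFP, V5-tagged wild-type SOX9 (SOX9_WT), or the V5-tagged SOX9 mutants M228, M303 and M379. M303 is a truncated SOX9, and the sources used here do not say what the names M228 and M379 stand for. No untreated group was analysed here, so all groups share the doxycycline, and whether each group is 1 clone is not given. Nothing in the labels says whether a group's 3 libraries were separate cultures. Every p-value therefore measures only how far these libraries differ, and that spread may be technical. Labels number the libraries 1 to 3 within each group.

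Library totals ran from 3054755 reads (GFP replicate 1) to 31704249. Levels are in CPM, reads scaled to a fixed library total and adjusted between libraries by the trimmed mean of M values (TMM), a correction for differences in RNA composition. At 3 reads the level is 0.912 CPM in GFP replicate 1 and 0.0896 CPM in the deepest library. These limits cover counting error only. Of the 30 values of the 10 genes in GFP, 14 rest on fewer than 20 reads and 2 on 3 or fewer, while no value in M228 or M303 does. The median dispersion within GFP was 0.0975, against 0.0104 to 0.0232 in the other groups. SOX9, the induced transcription factor, measured 119 ± 33.9 CPM in GFP, 213 ± 28.6 in SOX9_WT, 2105 ± 250 in M228, 3009 ± 51.6 in M303 and 2215 ± 158 in M379 (SD, n = 3). Reads do not tell the induced from the endogenous gene. The SOX9 level thus differed between SOX9_WT and the mutants, and its part in the comparisons with SOX9_WT was not tested.

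A basement membrane is a sheet of laminins, type IV collagen, nidogens and heparan sulfate proteoglycans that epithelia and vessels rest on. Laminins are trimers of an alpha, a beta and a gamma chain, and the alpha chain sets which cell receptors they bind. LAMA4 encodes an alpha chain typical of the basement membranes of vessels, muscle and fat. NTN4 encodes a netrin, a laminin-related protein that binds laminin gamma chains. VCAN encodes versican, a large chondroitin sulfate proteoglycan of loose matrix that binds hyaluronan. HS3ST3A1 encodes an enzyme that adds 3-O-sulfate to heparan sulfate, and ARSJ a member of the arylsulfatase family. TNFRSF11B encodes osteoprotegerin, a secreted decoy receptor for RANKL and TRAIL, and PRSS23 a secreted serine protease. The remaining 3 genes are of other kinds. EHD2 encodes an ATPase at the neck of caveolae, PKIB an inhibitor of the catalytic subunit of protein kinase A (PKA), and MAOB an amine oxidase of the outer mitochondrial membrane.

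The coordinates are those of the count table, on GRCh38. LAMA4 (ENSG00000112769) is on chromosome 6 at 112107931 to 112254939, minus strand, and PKIB (ENSG00000135549) on chromosome 6 at 122471917 to 122726373, plus strand. VCAN (ENSG00000038427) is on chromosome 5 at 83471618 to 83582303, plus strand. NTN4 (ENSG00000074527) is on chromosome 12 at 95657807 to 95791189, minus strand. HS3ST3A1 (ENSG00000153976) is on chromosome 17 at 13494032 to 13601929, minus strand. EHD2 (ENSG00000024422) is on chromosome 19 at 47713422 to 47743134, plus strand. PRSS23 (ENSG00000150687) is on chromosome 11 at 86791059 to 86952910, plus strand. MAOB (ENSG00000069535) is on chromosome X at 43766610 to 43882450, minus strand, and ARSJ (ENSG00000180801) on chromosome 4 at 113900284 to 113979727, minus strand. Counts are over exons. FZD4, on the opposite strand, overlaps 12.2% of the PRSS23 exon bases, and strand was not used in counting, so part of the PRSS23 reads could come from FZD4. Opposite-strand genes overlap 3.09% of the VCAN exon bases and 1.72% of those of LAMA4, and a same-strand gene 13.2% of those of PKIB.

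Since the genes were chosen for a shared difference, the 250 bases before their RefSeq starts (GRCh38.p14) were searched for words of the SOX type. The words were AACAAAG and its relative AACAATG, together with TACAAAG and its relative TACAATG, searched on both strands. They differ only at the first and the sixth letter, so no pair of them can match at the same place. Of the 10 genes 9 had an entry, with 13 starts in all, and TNFRSF11B had none. A word was present at 1 of the 13 starts, at the upstream start of PRSS23, as AACAATG on the plus strand 175 to 169 bases before it. Of all 35116 promoter entries 10.4% hold a word. A match is a description of letters and not of a site, and the absence of a match says only that these words are not in the window. The GC content of the 13 windows ran from 37.6% to 79.6%, with a median of 64.4%, against a median of 58.0% over all entries. The windows of 4 genes are shown 5′ to 3′ on the gene's strand, without any bases inside the gene's own span in the count table. PRSS23 is shown because its window holds the word, and HS3ST3A1 because it had one of the highest values against GFP. NTN4 and EHD2 are shown as examples of the several genes whose M228 levels stood apart from all other groups. The capitals mark the word. The windows lie at chr11:86790821-86791058 (plus), chr12:95791190-95791405 (minus), chr19:47713172-47713421 (plus) and chr17:13601930-13602179 (minus).
PRSS23 upstream start: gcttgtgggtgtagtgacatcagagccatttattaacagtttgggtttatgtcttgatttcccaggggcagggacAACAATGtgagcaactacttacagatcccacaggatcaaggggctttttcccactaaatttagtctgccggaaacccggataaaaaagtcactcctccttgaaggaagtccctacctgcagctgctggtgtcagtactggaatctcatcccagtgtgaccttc
NTN4: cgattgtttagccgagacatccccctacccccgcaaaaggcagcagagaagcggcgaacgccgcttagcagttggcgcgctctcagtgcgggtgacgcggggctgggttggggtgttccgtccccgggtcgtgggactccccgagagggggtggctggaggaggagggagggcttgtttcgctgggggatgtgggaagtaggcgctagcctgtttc
EHD2: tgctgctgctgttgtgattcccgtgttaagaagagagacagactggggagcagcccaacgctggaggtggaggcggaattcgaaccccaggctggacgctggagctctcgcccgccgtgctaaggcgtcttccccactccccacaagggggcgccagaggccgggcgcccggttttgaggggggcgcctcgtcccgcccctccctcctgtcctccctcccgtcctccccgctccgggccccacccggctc
HS3ST3A1: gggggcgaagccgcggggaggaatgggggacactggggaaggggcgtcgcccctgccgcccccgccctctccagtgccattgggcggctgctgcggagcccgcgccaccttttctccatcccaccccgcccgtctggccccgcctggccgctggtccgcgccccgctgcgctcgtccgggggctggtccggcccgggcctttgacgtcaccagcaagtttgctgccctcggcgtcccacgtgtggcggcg

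Reads of the matrix genes LAMA4, VCAN and NTN4 were low in GFP and highest in M228. LAMA4 stood at 2.13, 1.19 and 1.16 CPM in the GFP libraries 1 to 3, 5.40, 3.94 and 1.62 in SOX9_WT, 12, 11.6 and 7.85 in M228, 7.94, 6.31 and 4.84 in M303 and 5.10, 3.83 and 2.73 in M379. Library 1 was the highest and library 3 the lowest in all 5 groups. The lowest M228 library lay just under the highest M303 library and above all of SOX9_WT, M379 and GFP, and the ranges of M303, M379 and SOX9_WT overlapped. Relative to GFP, M228 had a log2 fold change of 2.97 ± 0.42 (estimate ± standard error), M303 of 2.27 ± 0.41, M379 of 1.55 ± 0.43 and SOX9_WT of 1.51 ± 0.43. Here, as in all comparisons with GFP, the same 3 GFP libraries serve every group.

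VCAN stood at 1.82, 0.937 and 2.51 CPM in GFP, 4.43, 4.34 and 1.82 in SOX9_WT, 16.9, 12.1 and 6.89 in M228, 6.81, 6.39 and 4.93 in M303 and 4.43, 2.99 and 3.15 in M379. The 3 M228 libraries spread from 6.89 to 16.9 CPM, and the lowest of them lay just above the highest M303 library. M303 lay above SOX9_WT and M379 in every library, and those last 2 groups overlapped. M228 differed from GFP by 2.73 ± 0.42 on the log2 scale, M303 by 1.75 ± 0.42, M379 by 0.97 ± 0.43 and SOX9_WT by 1.01 ± 0.43. Without GFP replicate 3 these 4 values are 3.34, 2.36, 1.57 and 1.62.

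For NTN4 the SOX9 groups other than M228 had means of 2.54 to 4.95 CPM, near the 3.53 CPM of GFP. It stood at 2.43, 2.47 and 5.69 CPM in GFP, 1.95, 3.19 and 2.48 in SOX9_WT, 12.2, 15.5 and 16.3 in M228, 4.96, 4.43 and 5.45 in M303 and 3.02, 3.44 and 4.22 in M379. The M228 libraries lay far above all others, and GFP overlapped SOX9_WT, M303 and M379, with GFP replicate 3 as the highest library outside M228. Estimated log2 differences from GFP were 1.94 ± 0.29 for M228, 0.37 ± 0.29 for M303, -0.10 ± 0.30 for M379 and -0.60 ± 0.31 for SOX9_WT. Without GFP replicate 3 the values for M228, M303, M379 and SOX9_WT are 2.57, 1.01, 0.54 and 0.035.

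The enzymes HS3ST3A1 and ARSJ had different patterns. HS3ST3A1 was the lowest of the 10 genes in GFP, at 0.608, 0.767 and 0.673 CPM, the first of these from 2 reads. It stood at 0.681, 0.882 and 0.860 in SOX9_WT, 3.65, 6.07 and 5.14 in M228, 1.34, 3 and 3.04 in M303 and 1.14, 1.88 and 1.55 in M379. The order was M228, M303, M379, SOX9_WT and GFP, with overlap between M303 and M379 and between SOX9_WT and GFP. On the log2 scale M228 exceeded GFP by 2.79 ± 0.38, M303 by 1.78 ± 0.39, M379 by 1.12 ± 0.41 and SOX9_WT by 0.18 ± 0.45. Of the 100-base stretches in its longest GENCODE transcript, 18% also occur in transcripts of HS3ST3B1, so reads there cannot be given to 1 of the 2 genes and both counts are uncertain. The value for the other genes was 0 to 6.04%.

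ARSJ stood at 1.52, 0.852 and 2.08 CPM in GFP, 3.79, 4 and 3.63 in SOX9_WT, 5.13, 4.38 and 5.99 in M228, 3.61, 4.31 and 5.12 in M303 and 4.16, 3.51 and 4.76 in M379. All 4 SOX9 groups lay above GFP in every library. M228 overlapped M303 and M379 and lay above SOX9_WT, while M303, M379 and SOX9_WT overlapped one another. The 4 log2 differences from GFP were close to one another, at 1.78 ± 0.28 for M228, 1.51 ± 0.28 for M303, 1.44 ± 0.29 for M379 and 1.33 ± 0.29 for SOX9_WT.

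**Figure D1:**
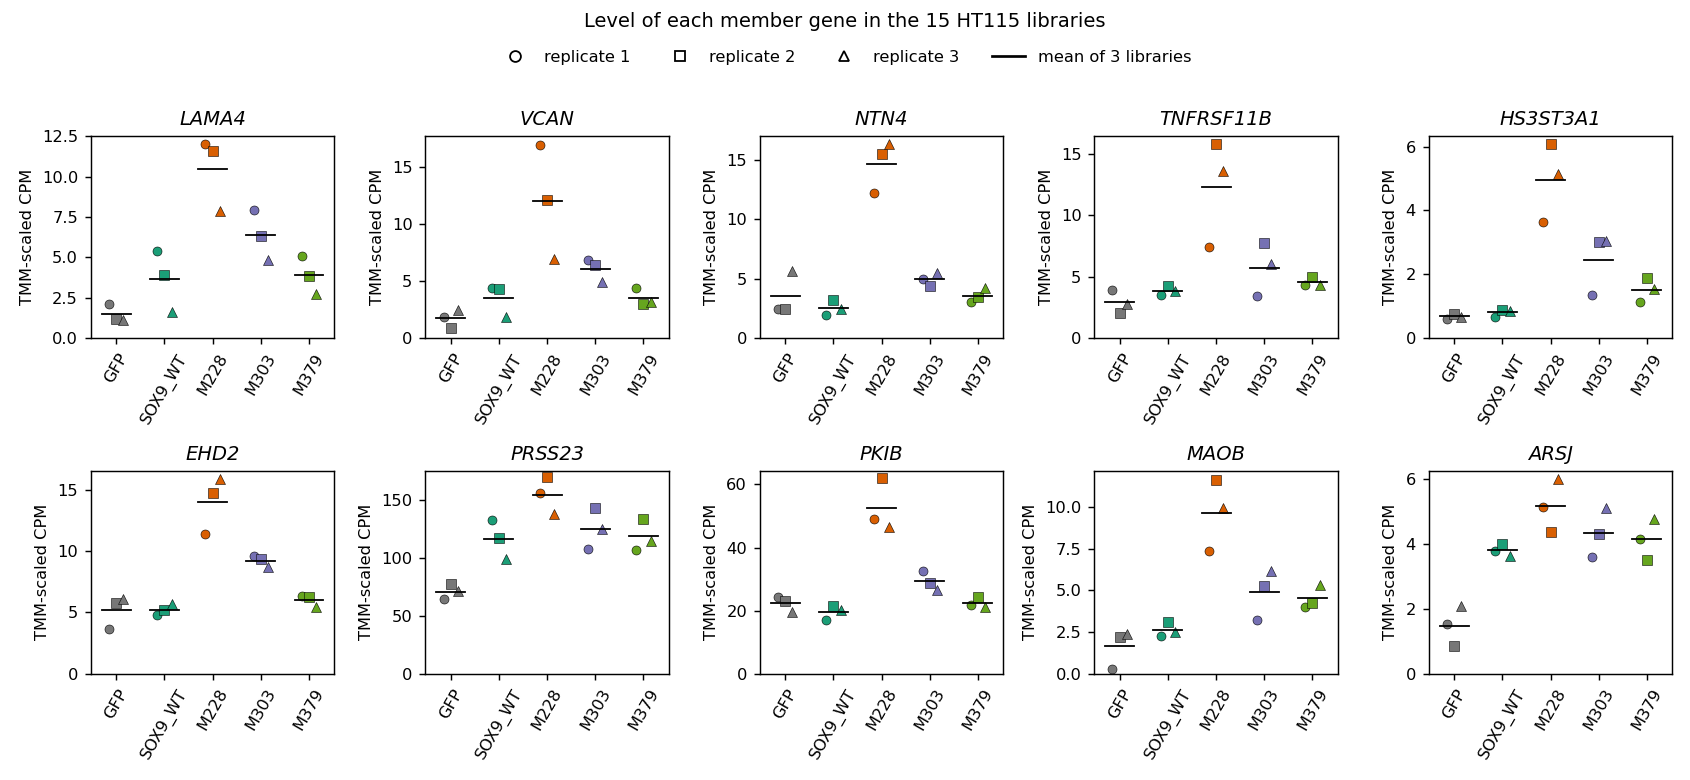
Level of the 10 genes in each of the 15 libraries (vertical axes, TMM-scaled CPM, starting at 0) by group (horizontal axes), with symbols for the replicate number and a bar for the mean of 3 libraries. M228 has the highest mean in every panel, and ARSJ and PRSS23 show all SOX9 groups above GFP.

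PRSS23 was the most abundant of the 10 in CPM and likewise had all SOX9 groups above GFP. It stood at 64.5, 77.2 and 71.4 CPM in GFP, 133, 117 and 99.1 in SOX9_WT, 156, 170 and 138 in M228, 108, 143 and 125 in M303 and 107, 134 and 115 in M379. Every GFP library lay below all libraries of the other groups, and M303, M379 and SOX9_WT had means of 126, 119 and 116 CPM with wide overlap. Its log2 differences from GFP were 1.11 ± 0.15 for M228, 0.82 ± 0.15 for M303, 0.74 ± 0.15 for M379 and 0.71 ± 0.15 for SOX9_WT.

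TNFRSF11B (ENSG00000164761) is on chromosome 8 of GRCh38 at 118923557 to 118951885, minus strand. It stood at 3.95, 2.04 and 2.81 CPM in GFP, 3.50, 4.27 and 3.82 in SOX9_WT, 7.43, 15.8 and 13.6 in M228, 3.40, 7.74 and 6.07 in M303 and 4.36, 5 and 4.34 in M379. Library 1 of M228 was the lowest of its group and lay within the range of M303, which also overlapped M379, SOX9_WT and GFP. M228 exceeded GFP by 2.15 ± 0.34 on the log2 scale, M303 by 1.06 ± 0.34, M379 by 0.74 ± 0.35 and SOX9_WT by 0.50 ± 0.36.

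EHD2 and PKIB, which act inside the cell, had GFP, SOX9_WT and M379 at about the same level. EHD2 stood at 3.65, 5.79 and 6.12 CPM in GFP, 4.81, 5.22 and 5.64 in SOX9_WT, 11.4, 14.7 and 15.9 in M228, 9.55, 9.35 and 8.73 in M303 and 6.31, 6.24 and 5.41 in M379. M228 lay above M303, and M303 above the other 3 groups, in every library, while M379, SOX9_WT and GFP overlapped. For EHD2 the log2 difference from GFP was 1.35 ± 0.19 with M228, 0.75 ± 0.18 with M303, 0.13 ± 0.19 with M379 and -0.07 ± 0.19 with SOX9_WT.

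PKIB stood at 24.3, 23.1 and 19.6 CPM in GFP, 17.1, 21.4 and 20.3 in SOX9_WT, 48.9, 62 and 46.4 in M228, 32.7, 28.6 and 26.5 in M303 and 21.8, 24.2 and 21 in M379. As for EHD2, M228 lay above M303 and M303 above the rest in every library, and GFP, M379 and SOX9_WT overlapped. For PKIB it was 1.24 ± 0.15 with M228, 0.40 ± 0.15 with M303, 0.01 ± 0.15 with M379 and -0.18 ± 0.15 with SOX9_WT on the log2 scale against GFP.

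MAOB stood at 0.304, 2.21 and 2.39 CPM in GFP, where the first value is a single read, 2.24, 3.12 and 2.48 in SOX9_WT, 7.37, 11.6 and 9.94 in M228, 3.22, 5.27 and 6.17 in M303 and 4.03, 4.22 and 5.35 in M379. M228 lay above all other groups in every library, M303 and M379 overlapped, and both lay above SOX9_WT. Relative to GFP, MAOB had log2 differences of 2.27 ± 0.35 in M228, 1.30 ± 0.35 in M303, 1.20 ± 0.36 in M379 and 0.40 ± 0.37 in SOX9_WT.

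Per kilobase of exon the order of levels changes. In M228, PKIB averaged 15.3 ± 2.44 CPM per kilobase and PRSS23 13.5 ± 1.40, followed by TNFRSF11B at 4.88 ± 1.73, EHD2 at 3.64 ± 0.608, NTN4 at 3.36 ± 0.505 and MAOB at 3.33 ± 0.733 (SD, n = 3). HS3ST3A1 at 1.16 ± 0.285, ARSJ at 1 ± 0.157, LAMA4 at 0.874 ± 0.190 and VCAN at 0.816 ± 0.342 were the lowest. For scale, LAMA5, another laminin alpha chain gene, had 21 ± 2.96 CPM per kilobase in the same libraries, far above LAMA4.

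All 10 genes were called higher in M228 than in GFP by edgeR quasi-likelihood tests (adjusted p under 0.05), where 0.204% of the tested genes were. Every M228 library lay above every GFP library for all 10, against 5.32% of tested genes. Because this contrast chose the genes, nothing is read from these counts. The median log2 fold change of the 10 was 2.04, and over all tested genes -0.001. With the libraries left out in turn, 12 of 15 fits kept all 10 calls. TNFRSF11B was lost without GFP replicate 2, TNFRSF11B and MAOB without M228 replicate 2, and TNFRSF11B and ARSJ without M228 replicate 3, which left 9, 8 and 8. A fit of libraries 2 and 3 of every group, chosen after seeing the data, kept 4 (TNFRSF11B, HS3ST3A1, EHD2 and MAOB). Equal replicate numbers deviated together in M228 and GFP (correlations of deviations from the group means of 0.169 to 0.394). With the replicate number as a block all 10 stayed called, while the calls over all genes went from 39 to 181.

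**Figure D2:**
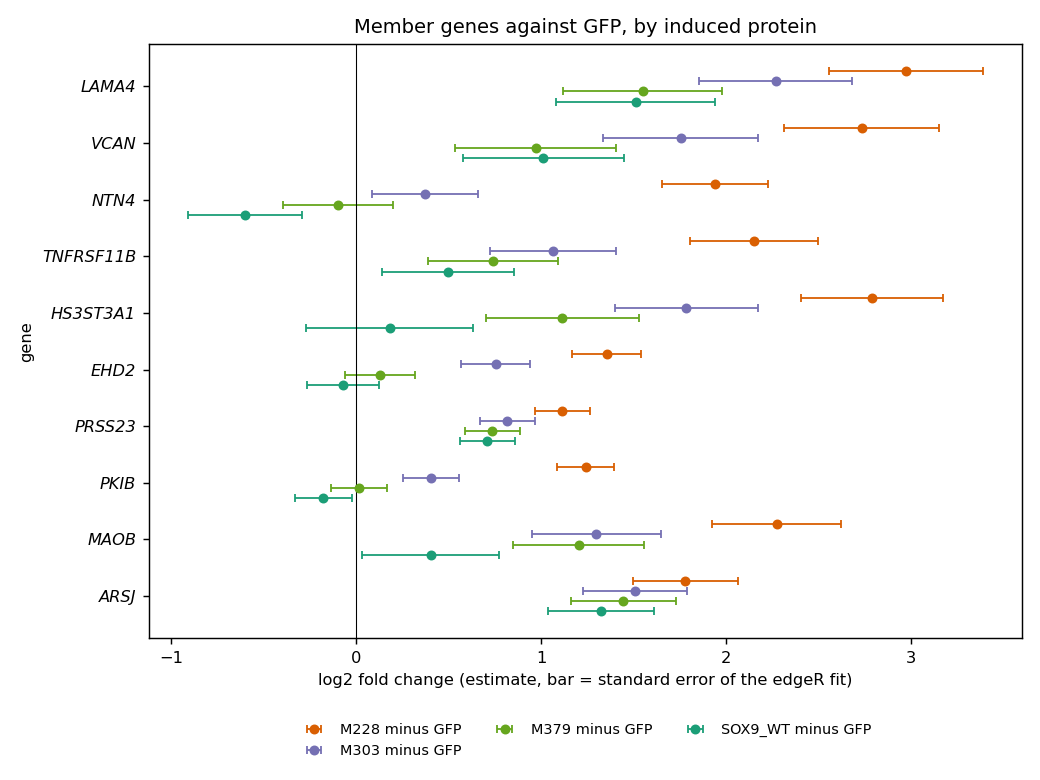
Log2 fold change against GFP (horizontal axis) of the 10 genes (vertical axis) for each induced protein, as the edgeR estimate with bars of 1 standard error. M228 is the highest of the 4 for each gene, and EHD2, PKIB and NTN4 have M379 and SOX9_WT near or below 0.

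Comparisons of M228 with the other SOX9 proteins use the M228 libraries that chose the genes and are given as description. Against SOX9_WT all 10 genes had every M228 library above every SOX9_WT library, where 7.12% of tested genes did. The log2 fold change was 2.61 ± 0.35 for HS3ST3A1, 2.54 ± 0.29 for NTN4, 1.87 ± 0.32 for MAOB, 1.72 ± 0.36 for VCAN and 1.65 ± 0.31 for TNFRSF11B. It was 1.46 ± 0.34 for LAMA4, 1.43 ± 0.18 for EHD2, 1.42 ± 0.15 for PKIB, 0.45 ± 0.24 for ARSJ and 0.41 ± 0.15 for PRSS23. By edgeR 7 of the 10 were called higher, against 0.285% of tested genes, and LAMA4, ARSJ and PRSS23 were not. NTN4, HS3ST3A1, EHD2 and PKIB kept the call whichever of the 15 libraries was left out. MAOB and TNFRSF11B were lost in 5 of them, those without any 1 of the SOX9_WT libraries or without M228 replicate 2 or 3. VCAN was called in 4 of the 15, those without GFP replicate 2 or 3, M228 replicate 3 or M303 replicate 1. Leaving out any 1 of the SOX9_WT libraries, or M228 replicate 2, left 4 calls.

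Set against the mean of M303 and M379, all 10 genes were again higher in M228, where 48.7% of tested genes were. Every M228 library lay above all 6 libraries of the other mutants for 6 of the 10 genes, where 2.12% of tested genes did so. These were VCAN, NTN4, HS3ST3A1, EHD2, PKIB and MAOB. The log2 difference was 1.80 ± 0.22 for NTN4, 1.37 ± 0.29 for VCAN and 1.34 ± 0.25 for HS3ST3A1. It was 1.03 ± 0.12 for PKIB and 0.91 ± 0.15 for EHD2, and smallest for PRSS23 and ARSJ (0.34 ± 0.13 and 0.30 ± 0.20). By edgeR NTN4, PKIB and EHD2 were called, 3 of 10 against 0.0495% of tested genes. With the replicate block 8 were called, all but PRSS23 and ARSJ. Equal numbers deviated together here too (correlations 0.187 to 0.594). NTN4 and PKIB kept their calls whichever library was left out. EHD2 kept its call in 4 and lost it without any 1 of the SOX9_WT, M303 or M379 libraries or without M228 replicate 2 or 3. The fit of libraries 2 and 3 called 0 of the 10. The SOX9 level in M228 (1900 to 2383 CPM) overlapped that in M379 (2034 to 2329) and lay below that in M303 (2949 to 3039). The part of the SOX9 level in these differences was not tested.

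The comparisons among SOX9_WT, M303 and M379 set none of the libraries that chose the genes against another group, and were tested. Their p-values and standard errors still use 1 estimate of spread over all 15 libraries, GFP and M228 included. The tests are therefore not independent of that choice, and only the fold changes and library overlaps compare other libraries alone. Against SOX9_WT, M303 had a positive log2 fold change for all 10 genes, where 52.1% of tested genes had one. Every M303 library lay above every SOX9_WT library for 6 of the 10 (VCAN, NTN4, HS3ST3A1, EHD2, PKIB and MAOB), against 9.51% of tested genes. The median log2 fold change of the 10 was 0.75, and over all tested genes 0.01. The largest was HS3ST3A1, at 1.60 ± 0.35 (edgeR adjusted p = 0.0621). EHD2 had 0.82 ± 0.18 (edgeR adjusted p = 0.0621), PKIB 0.58 ± 0.15 (0.13) and NTN4 0.97 ± 0.28 (0.255). For the other 6 the adjusted p ran from 0.471 to 1.0, with 0.90 ± 0.32 for MAOB, 0.76 ± 0.33 for LAMA4, 0.74 ± 0.36 for VCAN and 0.57 ± 0.31 for TNFRSF11B. ARSJ and PRSS23 were nearest to 0, at 0.18 ± 0.24 and 0.11 ± 0.15.

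None of the 10 was called in M303 against SOX9_WT by edgeR, where 0.21% of tested genes were called higher. At an unadjusted p under 0.05 there were 6, against 6.31% of tested genes, and DESeq2 called 3 (HS3ST3A1, EHD2 and PKIB). Equal replicate numbers met the rule used for pairing in these groups, with a lowest correlation of 0.101. With the replicate block edgeR called 4, which were HS3ST3A1 (adjusted p = 0.00314), EHD2 (0.0153), PKIB (0.0324) and LAMA4 (0.0427). Without GFP replicate 2, a library outside the comparison that shares the estimate of spread, 3 were called. Without GFP replicate 1 or M303 replicate 1 it was 1, and in the other 12 fits 0.

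M379 was close to SOX9_WT for most of the 10 genes. The log2 fold changes ran from -0.04 for VCAN to 0.93 for HS3ST3A1, with a median of 0.20 against 0.004 over all tested genes. HS3ST3A1 (0.93 ± 0.37), MAOB (0.80 ± 0.33) and TNFRSF11B (0.24 ± 0.32) had every M379 library above every SOX9_WT library, 3 of 10 against 9.75% of tested genes. By edgeR 0 were called (adjusted p from 0.866 to 0.995), against 0.0619% of tested genes called higher, with 2 at an unadjusted p under 0.05 (4.7% of tested genes) and 0 by DESeq2. The matrix genes LAMA4 and VCAN, at 0.04 ± 0.35 and -0.04 ± 0.38, changed sign when single SOX9_WT or M379 libraries were left out.

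Between the other mutants the level was lower in M379 than in M303 for all 10 genes, where 47.9% of all tested genes were higher. Every M379 library lay below every M303 library for 4 of the 10, against 2.59% of tested genes, and those were VCAN, NTN4, EHD2 and PKIB. The log2 difference (M379 minus M303) was -0.78 ± 0.36 for VCAN, -0.72 ± 0.33 for LAMA4, -0.67 ± 0.31 for HS3ST3A1, -0.62 ± 0.18 for EHD2 and -0.39 ± 0.15 for PKIB. These 5 had an unadjusted p under 0.05 by edgeR, where 0.848% of tested genes did, and 0 of the 10 passed the adjusted threshold by edgeR or DESeq2. EdgeR called 0.0% of the 16160 tested genes in this contrast. SOX9 itself was lower in every M379 library (2034 to 2329 CPM) than in every M303 library (2949 to 3039), and its part was not tested. PRSS23, MAOB and ARSJ had differences between -0.10 and -0.06, and each turned positive without a single library, PRSS23 without M303 replicate 2, MAOB without M303 replicate 3 and ARSJ without M303 replicate 3 or M379 replicate 2 (0.024, 0.103, 0.069 and 0.045).

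**Figure D3:**
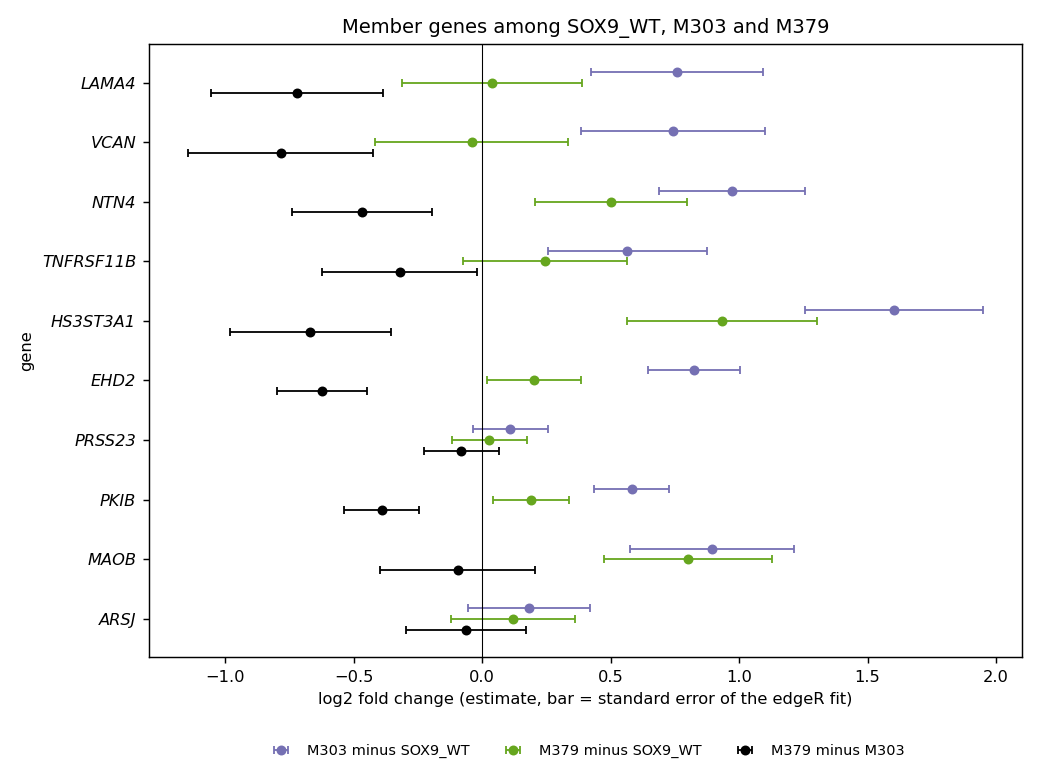
Log2 fold change (horizontal axis) of the 10 genes (vertical axis) in the comparisons among SOX9_WT, M303 and M379, as the edgeR estimate with bars of 1 standard error. The standard errors use a spread estimated over all 15 libraries, GFP and M228 included. M303 lies above SOX9_WT for all 10 genes and M379 below M303 for all 10, with the smallest differences in PRSS23 and ARSJ.

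In the comparisons of M303, M379 and SOX9_WT with GFP, which share the GFP libraries with the choice, edgeR called LAMA4 and PRSS23 higher in M303 (2 of 10, against 0.105% of tested genes). It called 0 of the 10 in M379 (0.0371% of tested genes) and 0 in SOX9_WT (0.0248%), with 6 and 4 at an unadjusted p under 0.05 (6.77% and 10.7% of tested genes) and 2 each by DESeq2 (PRSS23 and ARSJ). The blocked fit called 5 in M303 (LAMA4, HS3ST3A1, PRSS23, MAOB and ARSJ) and 2 in M379 (PRSS23 and ARSJ), where equal numbers deviated together. The LAMA4 call was lost in 13 of the 15 fits with a library left out, all but those without SOX9_WT replicate 1 or 3. The PRSS23 call was lost in 14, all but the one without GFP replicate 2. Every M303 library lay above every GFP library for 8 of the 10 genes (5.5% of tested genes), every M379 library for 7 (4.9%) and every SOX9_WT library for 2 (6.6%), ARSJ and PRSS23.

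Genes of the same families and pathways were read from 11 lists with 152 genes, of which 99 were tested. In M228 against GFP edgeR called 0 of them in either direction, where 0.241% of all tested genes were called. At an unadjusted p under 0.05, 21 were higher and 4 lower, 25 of 99 where 9.38% of all tested genes were. DESeq2 called 3 (CAV2, EHD4 and PRSS35) and the blocked fit 6. The median log2 fold change of the 99 was 0.10, against -0.001 over all tested genes. In M228 against SOX9_WT 1 was called higher (PACSIN3, of the EHD and caveola list) and 1 lower (PLAT, tissue plasminogen activator, of the serine protease list), where 0.569% of tested genes were called.

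Of 11 other laminin genes 10 were tested and 0 were called in M228 against GFP by edgeR, with 5 at an unadjusted p under 0.05 (9.38% of all tested genes), all higher, and 0 by DESeq2. LAMB1 and LAMC1, which encode the beta and gamma chains that pair with many alpha chains, stood at 169 ± 10.4 and 234 ± 17.8 CPM in M228 against 157 ± 40.6 and 183 ± 46.9 in GFP. Their log2 fold changes were 0.11 ± 0.16 and 0.36 ± 0.17. The epithelial alpha chain genes LAMA3 and LAMA5 had 0.80 ± 0.24 and 0.08 ± 0.17. Among 16 other basement membrane genes, which include the type IV collagens, nidogens and perlecan, 6 were tested and 0 called, with 1 higher and 1 lower at an unadjusted p under 0.05 and 0 by DESeq2. Of the netrins and netrin receptors other than NTN4, 5 of 12 were tested and 0 called, with 1 at an unadjusted p under 0.05 and 0 by DESeq2.

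For versican the list held other hyaluronan-binding proteoglycans, link proteins, fibrillins, ADAMTS proteases and CD44, the hyaluronan receptor. Of 20 genes 9 were tested and 0 called in M228 against GFP by edgeR, with 1 at an unadjusted p under 0.05 and 0 by DESeq2. CD44 stood at 686 ± 113 CPM in M228 and 853 ± 248 in GFP (-0.32 ± 0.20 on the log2 scale). TNFSF10, which encodes TRAIL, had 6.21 ± 3.41 and 8.86 ± 6.30 CPM (-0.32 ± 0.53). The list of osteoprotegerin ligands and their receptors had 5 of 7 tested and 0 called, with 1 at an unadjusted p under 0.05 and 0 by DESeq2.

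Among heparan sulfate genes, HS3ST3B1 is the paralog that shares sequence with HS3ST3A1. It stood at 2.43, 3.41 and 1.65 CPM in GFP, 2.38, 2.31 and 2.20 in SOX9_WT, 4.42, 4.66 and 5.76 in M228, 4.09, 4.12 and 3.46 in M303 and 4.03, 2.66 and 2.56 in M379. M228 lay above GFP and SOX9_WT in every library. The log2 fold change was 1.01 ± 0.27 against GFP (edgeR adjusted p = 0.182) and 1.11 ± 0.26 against SOX9_WT (edgeR adjusted p = 0.0749), and DESeq2 called the latter. Of the 22 listed genes of heparan sulfate synthesis 13 were tested and 0 called by edgeR in M228 against GFP, with 4 at an unadjusted p under 0.05 and 0 by DESeq2.

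Of 18 listed serine protease genes 13 were tested and 0 called in M228 against GFP by edgeR, with 3 at an unadjusted p under 0.05 and 1 by DESeq2. That one is PRSS35, the closest relative of PRSS23. It stood at 0.608, 0.511 and 0.245 CPM in GFP, 0.973, 0.407 and 0.955 in SOX9_WT, 2.31, 3.39 and 1.13 in M228, 0.926, 1.73 and 0.711 in M303 and 1.48, 1.43 and 0.773 in M379. M228 lay above GFP and SOX9_WT in every library, with a log2 fold change against GFP of 2.42 ± 0.58 (edgeR adjusted p = 0.119), and GFP replicate 1 rests on 2 reads. PLAT had a log2 fold change of -2.99 ± 0.53 in M228, -2.32 ± 0.42 in M303 and -2.86 ± 0.50 in M379 against SOX9_WT (edgeR adjusted p = 0.014, 0.028 and 0.0412), and these 3 contrasts share the SOX9_WT libraries. These calls held in 12, 9 and 4 of the 15 fits with a library left out, and none of the 3 held without SOX9_WT replicate 1. The M228 call was also lost without M228 replicate 1 or 2. In SOX9_WT against GFP, PLAT was called by DESeq2 and the blocked fit, though equal replicate numbers did not meet the rule for pairing there. In no mutant against GFP was PLAT called by DESeq2 or the blocked fit. EdgeR without the block called PLAT in none of the comparisons with GFP.

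In M228 against GFP edgeR called 0 of 9 tested EHD and caveola genes, with 4 at an unadjusted p under 0.05 and 2 by DESeq2 (CAV2 and EHD4), while the blocked fit called CAV1, CAV2 and EHD4. Without the block edgeR called 0 of 8 tested PKA inhibitor and subunit genes, with 1 at an unadjusted p under 0.05 and 0 by DESeq2. EHD1 and EHD4 had log2 fold changes of 0.27 ± 0.16 and 0.46 ± 0.13 in M228 against GFP, and for EHD4 45.7% of the exon bases are overlapped by an opposite-strand gene. PACSIN3, which encodes a membrane-bending partner of EHD proteins, rose against SOX9_WT by 1.13 ± 0.23 in M228 and 1.44 ± 0.22 in M303 (edgeR adjusted p = 0.0364 and 0.0123). The M228 call held in 4 of the 15 fits with a library left out, those without a GFP library or M303 replicate 1. The M303 call held in 12, all but those without SOX9_WT replicate 1 or 2 or M303 replicate 3. Of the other PKA inhibitors, PKIG had 5.25 ± 1.35 CPM in M228 and 12.5 ± 3.92 in GFP, a log2 fold change of -1.19 ± 0.39 (edgeR adjusted p = 0.317), opposite in sign to PKIB. The blocked fit called it. PKIA stayed at or under 1.19 CPM in every library. MAOA, the neighbour of MAOB on chromosome X, had 45.1 ± 16 CPM in M228 and 31.1 ± 14.8 in GFP (0.60 ± 0.34). None of the 8 tested amine enzyme genes was called by edgeR in M228 against GFP, nor had any an unadjusted p under 0.05, and DESeq2 called 0. The sulfatase list had 13 of 16 genes tested and 0 called, with 3 at an unadjusted p under 0.05 and 0 by DESeq2, and ARSI, the closest relative of ARSJ, had no read in any library.

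**Figure D4:**
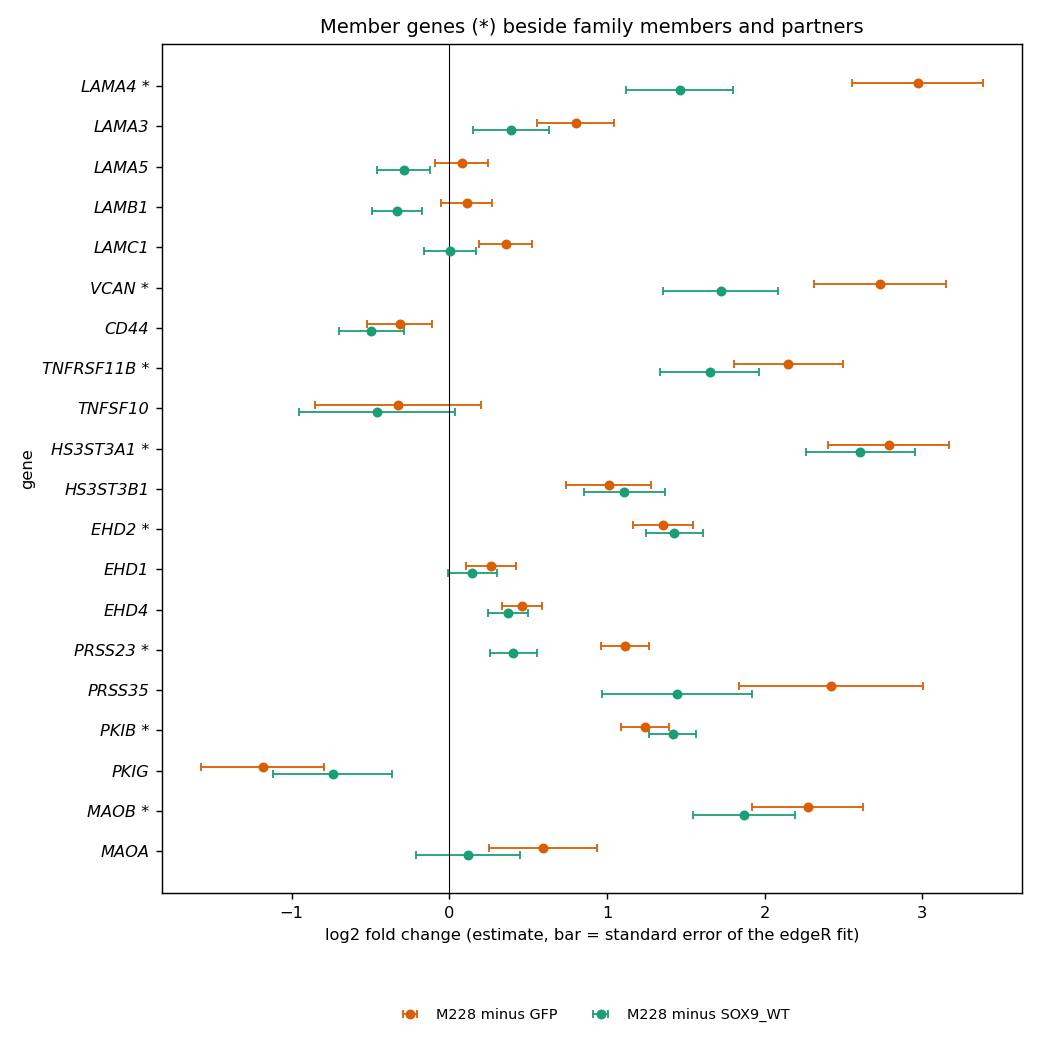
Log2 fold change (horizontal axis) in M228 against GFP and against SOX9_WT for members of the 10-gene list (starred) and for family members and partners (vertical axis), as the edgeR estimate with bars of 1 standard error. The starred genes lie to the right of their relatives except PRSS23, which lies left of PRSS35.

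Since LAMA4 and several others of the 10 are known from vessels or mesenchyme, markers of such cells were read. Of 16 endothelial markers 3 were tested, and CDH5, EMCN, ROBO4, SOX17 and SOX18 had no read in any of the 15 libraries. PECAM1 and KDR reached at most 0.424 and 0.204 CPM. The summed level of the 16 was 10 to 14.8 CPM in GFP, 10.9 to 11.8 in SOX9_WT, 11.3 to 12.4 in M228, 10.5 to 14.2 in M303 and 10.3 to 13.7 in M379, with ESAM at 3.79 to 6.73 and EGFL7 at 2.37 to 6.39. ERG, an endothelial transcription factor gene, had reads in all 15 libraries, at 0.78 to 1.9 CPM. EdgeR called 0 of the 3 tested markers in M228 against GFP, with 0 at an unadjusted p under 0.05 and 0 by DESeq2, and the 10 genes are not called vascular here.

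Fibroblast and pericyte markers were low as well. Of 16 markers 7 were tested, and PDGFRA and DPT had no read. The sum of the 16 was 8.20 to 8.82 CPM in GFP, 9.77 to 10.7 in SOX9_WT, 10.2 to 12.2 in M228, 8.74 to 11.5 in M303 and 8.51 to 9.16 in M379, highest in M228, and its part in the results was not tested. EdgeR called 0 of the 7 in M228 against GFP, with 1 at an unadjusted p under 0.05 and 0 by DESeq2, while the blocked fit called COL3A1. DESeq2 and the blocked fit also called COL3A1 in M228 against SOX9_WT, where equal replicate numbers did not meet the rule for pairing. The blocked fit called it in M303 against GFP and against SOX9_WT too. COL3A1 reached at most 1.69 CPM. The 14 epithelial and colorectal markers were all tested, with a sum of 12709 to 27227 CPM in GFP and 17061 to 23198 in M228, EPCAM at 848 to 1117 CPM and CDX2 at 227 to 441 CPM. EdgeR called 0 of the 14 in M228 against GFP, with 4 at an unadjusted p under 0.05, all higher, and 1 by DESeq2 (CEACAM5). In M303 against SOX9_WT it called CEACAM5, a colorectal surface antigen gene, at -0.664 ± 0.135 (edgeR adjusted p = 0.047), a call lost in 12 of the 15 fits with a library left out, all but those without a GFP library. Of 10 blood cell markers 2 were tested and CD3E had no read. Their sum, nearly all of it LYZ, the lysozyme gene that gut epithelium also expresses, was 1409 to 2431 CPM in GFP, 2570 to 3545 in SOX9_WT, 637 to 1014 in M228, 811 to 1556 in M303 and 1022 to 1442 in M379. LYZ had a log2 fold change of -1.85 ± 0.27 in M228 against SOX9_WT (edgeR adjusted p = 0.0047), a call kept whichever library was left out. The drop was not particular to M228. In M303 against SOX9_WT, LYZ had -1.44 ± 0.27 (edgeR adjusted p = 0.0296), a call held in 9 of the 15 fits. DESeq2 called LYZ in M379 against SOX9_WT and in M228 against GFP, where edgeR without the block did not. In bulk samples, fewer cells of a type and less RNA per cell cannot be told apart.

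Over the 15 libraries the 10 genes followed one another. The Pearson r of each gene's log2 CPM with the mean of the other 9 ran from 0.716 (ARSJ) to 0.935 (HS3ST3A1), and Spearman's rho from 0.761 (PKIB) to 0.95 (HS3ST3A1). The genes were chosen for a shared difference, and within a library all genes share its depth, so these are descriptions. Of 12411 other genes ranked by likeness to the mean profile, the nearest were MLLT3 (r = 0.937, rho = 0.936), CTNNAL1 (r = 0.917, rho = 0.932) and IL18 (r = 0.91, rho = 0.918). SLC6A20, a gut amino acid transporter gene, had r = 0.891, with mean levels of 144 CPM in GFP, 152 in SOX9_WT, 316 in M228, 256 in M303 and 229 in M379. TLR4, a receptor for bacterial lipopolysaccharide, had r = 0.88, with 15.1, 25.2, 45.2, 36.3 and 32.2 CPM in the same order.

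Within groups the 10 genes did not share 1 pattern. As given above, LAMA4 was highest in library 1 of all 5 groups. VCAN was highest in library 1 of all groups but GFP. HS3ST3A1 was lowest in library 1 of every group, and so was MAOB. The ratio of the highest to the lowest library reached 3.33 for LAMA4 in SOX9_WT and 7.86 for MAOB in GFP, the latter resting on the single read of GFP replicate 1. Coefficients of variation in M228 ran from 10.4% for PRSS23 to 41.8% for VCAN.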

How the data were processed

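The authors deposited a table of raw read counts per gene for 15 libraries, per the file header made with featureCounts 2.0.1. The submitters' processing notes also name STAR 2.7.0a, hg38 and Ensembl annotation 101. The command in the file header sets neither strand nor read pairing, so reads and not fragments were counted, on either strand. A second, normalized table was not used here, and 3 columns in it match no label.

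Counts were analysed as deposited with edgeR 4.0.16 in R 4.3.3. Genes passed filterByExpr (16160 of 60671), libraries were scaled by TMM, and all 15 libraries entered 1 quasi-likelihood model with 5 group means. P-values were two-sided and adjusted by Benjamini-Hochberg within each contrast over all tested genes, with calls at 0.05. The standard error is the log2 fold change divided by the root of F. The replicate number was tested as a block because labels number the libraries in every group. It was taken to pair libraries where every pair's deviations correlated above 0.1, which held for M228, M303 and M379 against GFP, M228 against the mean of M303 and M379, M303 against SOX9_WT and M379 against M303. Other alternatives were DESeq2 1.42.0, no filter on low counts, leaving out each library, and libraries 2 and 3 of every group, the last chosen after seeing the data. On simulated counts with 200 changed genes among 16160, the M228 and GFP contrast recovered 67 of 100 at a log2 change of 1 and 97 of 100 at 2, and called 10 unchanged genes. For M303 against SOX9_WT it was 69 and 96 of 100, with 6. The simulation gave all groups the same dispersion for a gene, while in the data GFP had 0.0975 and M228 0.0216. Changed genes were drawn only from those above a minimum mean read count. Recovery in contrasts with GFP was therefore not measured at the spread of GFP. The genes, lists, words and markers were chosen with earlier results of these data known. Named are the 10 genes, their family members and partners on the lists, and the genes nearest to their mean profile. Likeness was computed on log2 CPM (prior count 2) for genes with a mean log2 CPM of at least 1.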

Additional observations from a re-analysis of the deposited data

How the results depend on the processing

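The direction of all 10 genes in M228 against GFP, SOX9_WT and the mean of M303 and M379, and in M303 against SOX9_WT, was the same under every alternative run, while the number of calls was not. Over all tested genes the calls in M228 against GFP were 39, and 168 with DESeq2, 282 with no filter on low counts, 181 with the replicate block, 9 with libraries 2 and 3 of every group, and 15 to 143 with a library left out. In the same order of settings they were 92, 216, 320, 319, 21 and 27 to 269 in M228 against SOX9_WT. Against the mean of M303 and M379 they were 9, 36, 67, 44, 1 and 5 to 24. M303 against GFP gave 19, 84, 212, 85, 4 and 4 to 31. M379 against GFP gave 6, 45, 74, 17, 3 and 2 to 12. SOX9_WT against GFP gave 5, 59, 180, 79, 1 and 0 to 40. M303 against SOX9_WT gave 62, 150, 273, 259, 7 and 9 to 219. M379 against SOX9_WT gave 20, 57, 137, 106, 1 and 1 to 89. M379 against M303 gave 0 calls, 5 with no filter and 0 to 1 with a library left out. Of the 10 genes, in the same order of settings, M228 against GFP called 10, 10, 10, 10, 4 and 8 to 10, M228 against SOX9_WT 7, 8, 8, 8, 6 and 4 to 8, and M228 against the mean of M303 and M379 3, 7, 8, 8, 0 and 2 to 4. For M303 against GFP it was 2, 6, 7, 5, 0 and 0 to 1. M379 against GFP called 0, 2, 4, 2, 0 and 0 to 1, SOX9_WT against GFP 0, 2, 3, 3, 0 and 0 to 1, and M303 against SOX9_WT 0, 3, 3, 4, 0 and 0 to 3. The causes were not tested. Some small differences changed sign when a single library was left out (range over the 15 fits, then the fits that turned). For M379 against GFP, NTN4 ran from -0.387 to 0.539 (GFP replicate 3) and PKIB from -0.078 to 0.065 (-0.078 without GFP replicate 3, -0.044 without M379 replicate 2), and EHD2 came to -0.049 in libraries 2 and 3. For SOX9_WT against GFP, NTN4 ran from -0.887 to 0.035 and EHD2 from -0.197 to 0.046 (both turned without GFP replicate 3). For M379 against SOX9_WT, LAMA4 ran from -0.275 to 0.44 (-0.275 without SOX9_WT replicate 3, -0.212 without M379 replicate 1), VCAN from -0.318 to 0.155 (0.155, 0.111, 0.064 and 0.032 without SOX9_WT replicates 1 and 2 and M379 replicates 2 and 3) and PRSS23 from -0.074 to 0.136 (-0.074 without SOX9_WT replicate 3, -0.065 without M379 replicate 2). For M379 against M303, PRSS23 ran from -0.177 to 0.024 (M303 replicate 2), MAOB from -0.33 to 0.103 (M303 replicate 3) and ARSJ from -0.183 to 0.069 (0.069 without M303 replicate 3, 0.045 without M379 replicate 2). Equal replicate numbers did not meet the rule for pairing in M228 against SOX9_WT, M379 against SOX9_WT and SOX9_WT against GFP (lowest correlations 0.0641, 0.0696 and -0.03), so there the block counts describe the fit only. Depth limits the GFP values most, since 14 of the 30 rest on fewer than 20 reads.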
